A study of Mus musculus with 66 samples.

Results

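Synaptic vesicle release was followed through 8 genes that encode its core proteins: Syt1, Stx1a, Snap25, Vamp2, Syn1, Syn2, Unc13a and Rims1. They were taken by gene symbol from a table of read counts with 30084 symbols, and all 8 passed the filter on low counts that left 16145 genes for testing. The RNA came from cultured neurons of wildtype e16.5 mice, with male and female embryos kept apart. Cultures received lentivirus with a nontargeting short hairpin RNA (shRNA, an RNA that brings down a matching mRNA), lentivirus with an shRNA against Med13l, Chd8, Ash1l, Setd5, Tbr1, Dnmt3a, Kdm6b, Kmt2c or Mbd5, or no virus. The virus was removed on day 6 of culture and lysis followed on day 10, and each of the 11 conditions had 3 libraries per sex, 66 in all. The 9 targets encode regulators of chromatin or transcription: Chd8 a chromatin remodelling ATPase, Med13l a subunit of the kinase module of Mediator, which bridges transcription factors and RNA polymerase II. By the labels, virus doses were set to lower each target only partly, in wildtype cells. The sequences of the hairpins were not used here, and each condition is described by its target alone.

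Neurons release transmitter when a vesicle fuses with the membrane of the nerve terminal. Vamp2 on the vesicle and Stx1a and Snap25 on the terminal membrane are the SNARE proteins whose zippering drives fusion, and Syt1 is the calcium sensor that couples fusion to the action potential. Unc13a (Munc13-1) primes docked vesicles, Rims1 (RIM1) is a scaffold that places vesicles beside calcium channels at the active zone, and the synapsins Syn1 and Syn2 hold the reserve pool of vesicles. Embryonic neurons raise these genes as they mature and form synapses in culture.

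Syt1 and Stx1a fell after Med13l shRNA in both sexes, and Syn2 and Syt1 fell after Chd8 shRNA in both sexes. The promoters of these 3 genes are shown first because they are the members that moved, with that of Unc13a beside them as a member that did not pass in the main test. Each is the run of 250 bases before the RefSeq start of the gene on GRCm38.p6, printed 5′ to 3′ on the gene's own strand. The capitals mark the GC box, the letters GGGCGG or their reverse complement CCGCCC, a short motif that Sp-family factors can bind. The windows are chr10:109010976-109011225 on the minus strand for Syt1, chr5:135023232-135023481 on the plus strand for Stx1a, chr6:115134652-115134901 on the plus strand for Syn2 and chr8:71671758-71672007 on the minus strand for Unc13a.
Syt1: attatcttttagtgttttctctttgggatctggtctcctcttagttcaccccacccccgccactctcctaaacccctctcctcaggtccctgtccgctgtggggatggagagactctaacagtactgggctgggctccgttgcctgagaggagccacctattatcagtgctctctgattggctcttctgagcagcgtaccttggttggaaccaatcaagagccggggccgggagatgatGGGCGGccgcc
Stx1a: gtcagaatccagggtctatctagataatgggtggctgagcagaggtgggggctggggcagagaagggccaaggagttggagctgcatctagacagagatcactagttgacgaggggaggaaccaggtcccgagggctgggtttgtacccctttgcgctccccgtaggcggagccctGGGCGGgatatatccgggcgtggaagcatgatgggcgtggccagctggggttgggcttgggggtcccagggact
Syn2: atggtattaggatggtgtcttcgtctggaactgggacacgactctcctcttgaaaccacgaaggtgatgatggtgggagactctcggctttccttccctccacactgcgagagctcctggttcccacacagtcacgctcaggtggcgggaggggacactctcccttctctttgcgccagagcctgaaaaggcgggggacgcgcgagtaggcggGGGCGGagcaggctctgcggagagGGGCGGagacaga
Unc13a: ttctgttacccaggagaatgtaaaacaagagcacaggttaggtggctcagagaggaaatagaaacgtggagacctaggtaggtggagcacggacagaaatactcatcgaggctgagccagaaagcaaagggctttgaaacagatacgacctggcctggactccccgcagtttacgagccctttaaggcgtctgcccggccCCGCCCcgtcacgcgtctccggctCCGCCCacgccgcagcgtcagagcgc
The window held 1 GC box in Syt1, 1 in Stx1a, 2 in Syn2 and 2 in Unc13a. Among 32851 promoter windows of the same length, 32.7% held at least 1 on either strand. The Syt1 window also held 2 copies of CCAAT, found in 33.8% of all windows on either strand, and the other 3 held none. The window of Syn1 had no GC box but 1 cAMP response element (TGACGTCA, which reads the same on both strands), found in 1.55% of all windows. Syt1 and Syn2 each had a further RefSeq start whose window had no GC box. Snap25 and Vamp2 are named without a promoter. These matches describe letters in these windows and no binding.

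The libraries held between 13634872 and 66074822 counts with a median of 31494162, and the members had at least 1828 counts (Rims1) in every library, so counting error is small beside the spread between libraries. The labels do not say whether the 3 libraries of a group came from separate litters or cultures, so the spread behind the p-values may be technical. That spread was estimated for each gene over the groups of all 66 libraries. A p-value in males therefore also rests on the spread of the female libraries, and the reverse. The cells carried neuron markers as labelled: 17 such genes summed to between 11140.1 and 14099 counts-per-million (CPM) in each library. Astrocyte markers summed to between 265 and 694 CPM and microglia markers to between 0.62 and 4.58 CPM. Med13l mRNA stood at 36.1% to 38.1% of the nontargeting mean in the 3 male libraries with Med13l shRNA and at 20.3% to 37.8% in the 3 female ones, and Chd8 mRNA at 28.8% to 31.7% and 32.8% to 39.1% with its own shRNA. By contrast, 2 male libraries were at odds with their labels. In males, the first of the 3 libraries labelled Setd5 had Setd5 mRNA at 101% of the nontargeting mean and Kdm6b mRNA at 38.5%. The first of those labelled Kdm6b had Setd5 mRNA at 32.3% and Kdm6b mRNA at 66.7%. Kdm6b itself was not called lower after Kdm6b shRNA in either sex (edgeR adjusted p = 0.0953 in males and 0.856 in females), and Kdm6b female replicate 3, at 36.2 CPM (78.8%), lay inside the nontargeting range of 31.0 to 54.4 CPM. Setd5 was not called lower in the males labelled Setd5 (adjusted p = 0.402). Sex-linked genes followed the sex labels except in Setd5 female replicate 1, which had 612 counts of Ddx3y and 574 of Kdm5d (at most 12 and 2 in any other female library) beside 0 of Uty. Female libraries numbered 2 also stood apart in several members, as described below.

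Per kilobase of exon, Vamp2 was the most abundant member in the 6 nontargeting libraries, at 312 ± 42.2 CPM per kilobase (SD, n = 6), and Syt1 followed at 143 ± 19.1. Syn1 (111 ± 22.9) and Snap25 (106 ± 12.9) lay next and did not differ beyond their spread. Stx1a stood at 78.3 ± 6.04 CPM per kilobase. Unc13a (37.0 ± 6.31), Syn2 (35.1 ± 4.84) and Rims1 (32.8 ± 11.5) closed the order and did not differ from each other beyond their spread. Exon lengths came from the GENCODE annotation of GRCm38, in which the members lie on 8 different chromosomes: Syt1 (chr10:108497650-109010982), Stx1a (chr5:135023482-135051100), Snap25 (chr2:136713453-136782428), Vamp2 (chr11:69088490-69092384), Syn1 (chrX:20860511-20921004), Syn2 (chr6:115134902-115282006), Unc13a (chr8:71624417-71671757) and Rims1 (chr1:22286251-22805994). Counts were summed over each whole gene, so isoforms are not separated.

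**Figure D1:**
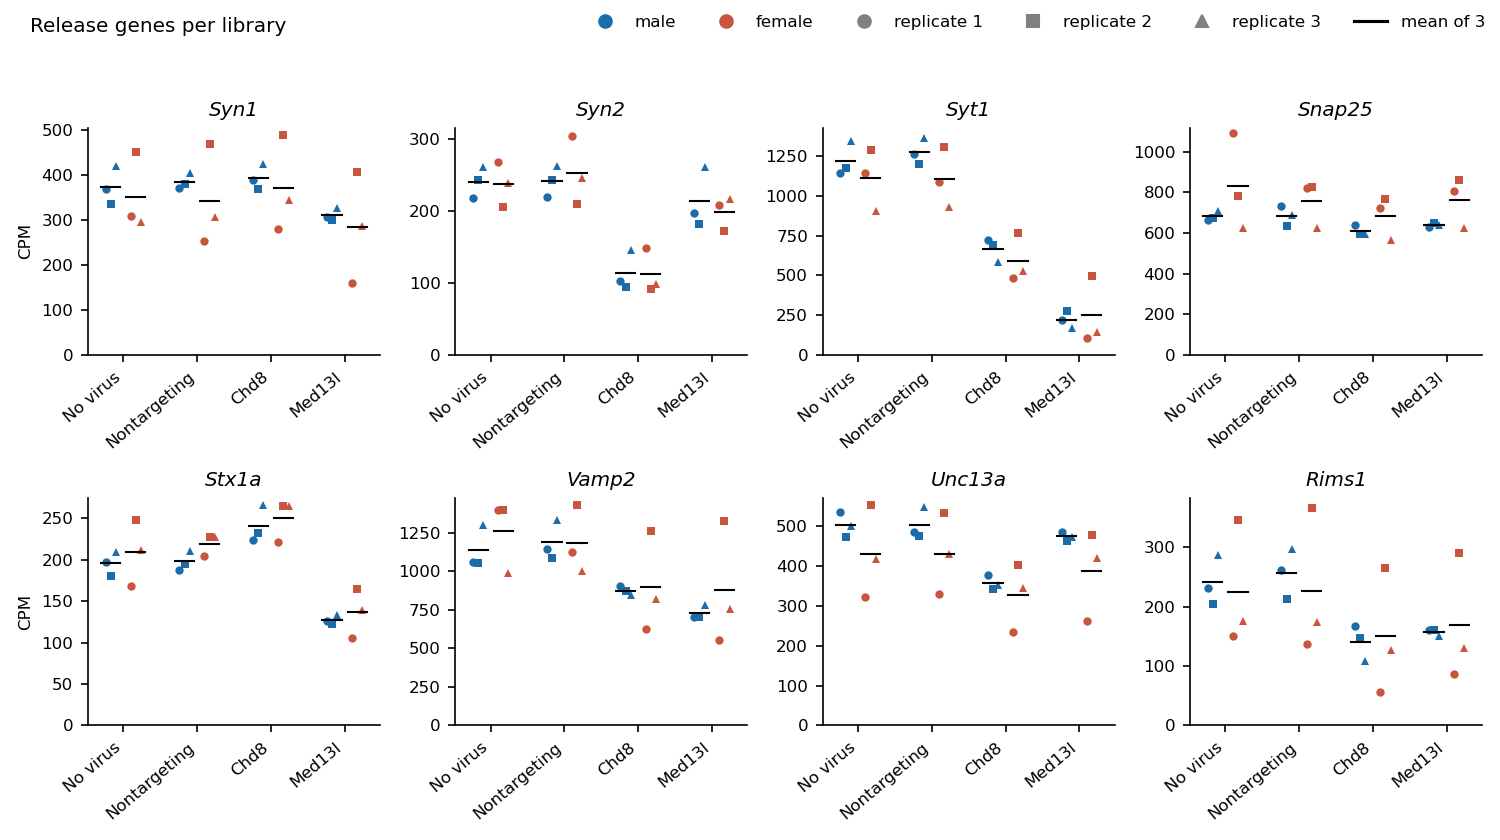
Expression of the 8 members in CPM (vertical axes, starting at 0) in each library with no virus, the nontargeting shRNA, Chd8 shRNA and Med13l shRNA. Points are libraries, coloured by sex and shaped by replicate number, and lines are group means (n = 3). Syt1 with Med13l shRNA lies between 105 and 494 CPM against 927 to 1363 CPM with the nontargeting shRNA.

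Infection with the nontargeting virus moved no member past the threshold. Between nontargeting and no virus libraries, log2 fold changes ran from −0.14 (Snap25, females) to 0.09, and none of 16 tests passed (edgeR quasi-likelihood test, Benjamini-Hochberg adjusted p below 0.05 counts as passing or called). None of the 16 had an unadjusted p under 0.05, DESeq2 called 0, and over all genes edgeR called 0.0% in either sex. Syt1, for example, was at 1140.2, 1177 and 1347 CPM in male libraries without virus and at 1260.2, 1198 and 1363 CPM with the nontargeting shRNA.

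After Med13l shRNA, 2 of 8 members fell in males, where 8.06% of all genes tested were called and 4.92% were called lower. The same count of 2 of 8 fell in females, where 10.2% of all genes were called and 5.49% called lower. These were Syt1 and Stx1a in each sex. Chd8 shRNA also lowered 2 of 8 members per sex, Syn2 and Syt1, against 9.82% of all genes called in males (6.18% lower) and 9.33% in females (5.99% lower). No member was called higher in any knockdown by this fit. The 2 knockdowns are compared with the same nontargeting libraries, so their values stand side by side and their likeness is not read as a result. Of the 8 members, 5 did not overlap the nontargeting libraries on the lower side in males after Med13l shRNA, where 21.6% of all genes did so, and 2 in females (10.3%). After Chd8 shRNA the counts were again 5 lower in males (20.5%) and 2 in females (11.5%), and 1 member, Stx1a, lay wholly above in males, where 38.9% of all genes did not overlap on either side. In these bulk cultures, fewer cells of a type and less RNA per cell cannot be told apart.

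Syt1, the calcium sensor of fast release, gave the largest change of any member in any knockdown. With the nontargeting shRNA the male libraries held 1260.2, 1198 and 1363 CPM of Syt1, and with Med13l shRNA 218, 276 and 171 CPM. The female libraries held 1089, 1305 and 927 CPM against 105, 494 and 145 CPM. All 6 Med13l libraries lay below all 6 nontargeting ones, and the female library numbered 2 was the highest of the 6. The mean was 5.75-fold lower in males (log2 fold change −2.52, SE 0.283, edgeR adjusted p = 6e-09) and 4.46-fold lower in females (−2.16, SE 0.28, adjusted p = 1.9e-07). Set against the nontargeting library of the same number, Syt1 stood at 17.3%, 23.0% and 12.6% in males and at 9.6%, 37.9% and 15.7% in females. By the rule given with the processing, the numbers paired these libraries in females but not in males. The female value ran from −3.14 to −1.78 over the alternatives described in the closing section, and each single library could be left out without ending the call.

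Chd8 shRNA lowered Syt1 less far. The male libraries held 724, 693 and 581 CPM and the female libraries 484, 767 and 524 CPM, below every nontargeting library of their sex. The mean was 1.91-fold lower in males (−0.94, SE 0.27, edgeR adjusted p = 0.0174) and 1.87-fold lower in females (−0.90, SE 0.27, adjusted p = 0.0229). Against the nontargeting library of the same number these were 57.4%, 57.8% and 42.6% in males and 44.5%, 58.8% and 56.5% in females. These calls rested on few libraries. Syt1 lost its call after Chd8 shRNA in females without Chd8 replicate 1 (adjusted p = 0.185), Chd8 replicate 3 (0.0997), nontargeting replicate 1 (0.0538) or nontargeting replicate 2 (0.108), and in males without Chd8 replicate 3 (0.106) or nontargeting replicate 3 (0.0654).

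Among the SNARE genes, Stx1a (syntaxin-1A) fell after Med13l shRNA and Snap25 and Vamp2 did not pass. Stx1a stood at 188, 195 and 211 CPM in nontargeting males and at 126, 122 and 133 CPM with Med13l shRNA. In females it stood at 205, 227 and 227 CPM against 105, 165 and 139.9 CPM. All 6 Med13l libraries lay below all 6 nontargeting ones. Stx1a was 1.56-fold lower in males (−0.64, SE 0.156, edgeR adjusted p = 0.00495) and 1.61-fold lower in females (−0.68, SE 0.156, adjusted p = 0.00215). Without Med13l female replicate 1 the female call was lost (adjusted p = 0.0746).

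Stx1a did not fall after Chd8 shRNA. Its male libraries held 224, 232 and 266 CPM, all above the nontargeting males, and its female libraries 221, 265 and 265 CPM, which overlapped them. The log2 fold changes were 0.28 (SE 0.155, edgeR adjusted p = 0.289) and 0.19 (SE 0.155, adjusted p = 0.568). With the replicate number as a block, which pairs libraries of the same number and is used where their deviations run together, the male value was called (0.28, SE 0.101, edgeR adjusted p = 0.0356), in a fit that called 22.1% of all genes. Over the other 7 knockdowns Stx1a stayed between −0.04 and 0.25 with all libraries kept.

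Vamp2 (synaptobrevin-2), the vesicle SNARE, was lower on average after both shRNAs without passing. Male Med13l libraries held 702, 704 and 784 CPM against 1146, 1088 and 1337 CPM with the nontargeting shRNA, with no overlap. Female Med13l libraries held 555, 1328 and 753 CPM against 1128, 1430.4 and 1006 CPM, where replicate 2 lay inside the nontargeting range. On the log2 scale Vamp2 was at −0.70 in males (SE 0.257, edgeR adjusted p = 0.0814) and at −0.44 in females (SE 0.256, adjusted p = 0.3). The pairing by replicate number held for Med13l in females, and there the blocked fit called Vamp2 (−0.49, SE 0.174, adjusted p = 0.0284) and 27.9% of all genes. After Chd8 shRNA Vamp2 was at 908, 871 and 848 CPM in males and 623, 1265 and 818 CPM in females (−0.44, edgeR adjusted p = 0.33, and −0.40, adjusted p = 0.417).

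Snap25 (SNAP-25) passed under neither of these shRNAs. Its nontargeting libraries held 731, 636 and 688 CPM in males and 823, 825 and 626 CPM in females. With Med13l shRNA they held 628, 650.3 and 637 CPM and 808, 862 and 623 CPM, which overlapped in both sexes. The log2 fold changes were −0.10 (SE 0.168) and 0.01 (SE 0.168) after Med13l shRNA, and −0.17 and −0.14 after Chd8 shRNA, with edgeR adjusted p of at least 0.645 in all 4.

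**Figure D2:**
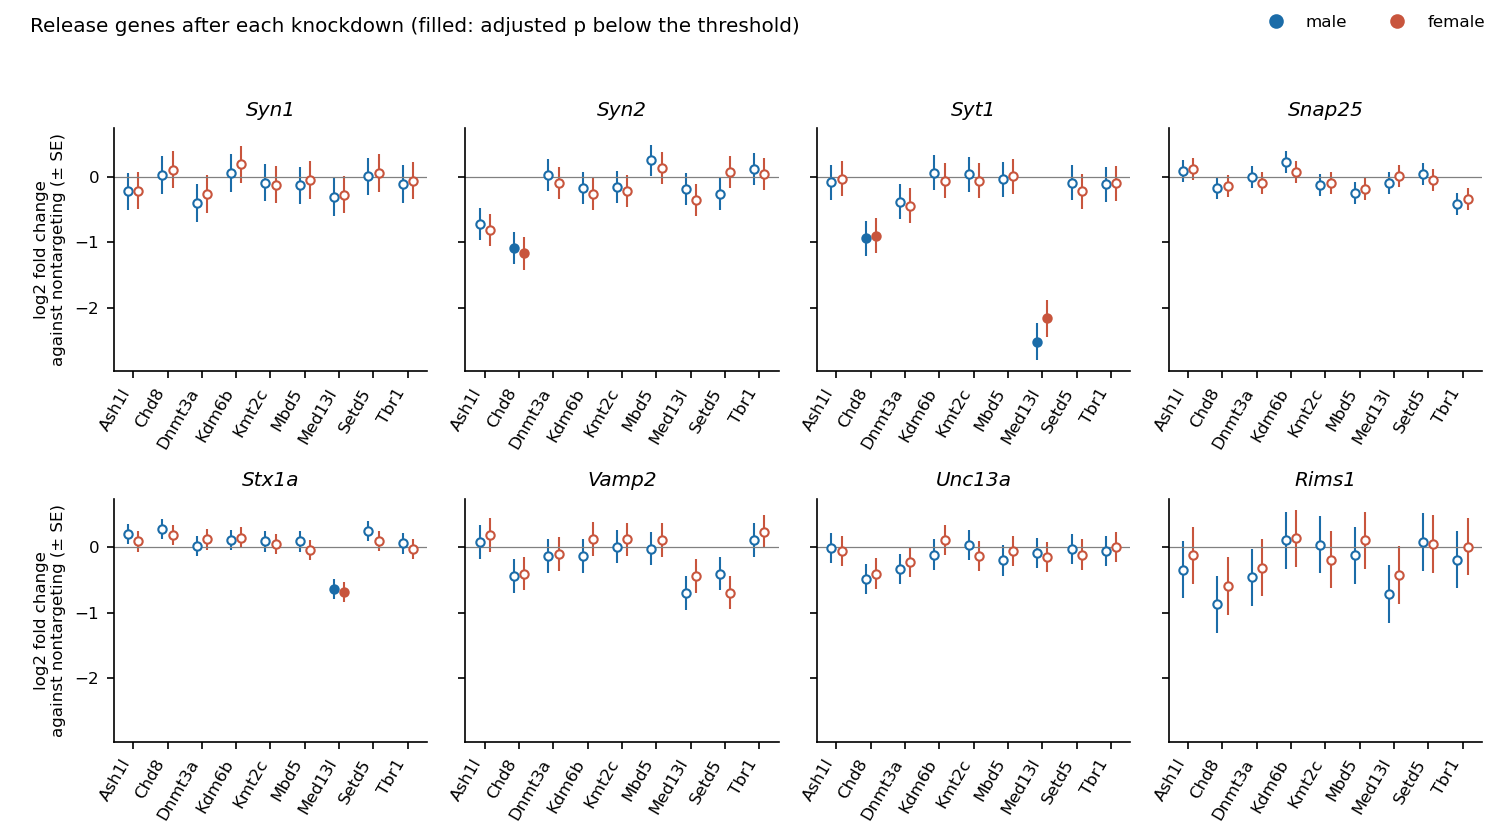
Log2 fold change of each member against the nontargeting libraries of the same sex (vertical axes), for the 9 shRNA targets (horizontal axes) in males and females. Points are edgeR estimates, bars are ± 1 SE, and filled points are called at an adjusted p below 0.05. Filled points appear for Syt1 and Stx1a after Med13l shRNA and for Syn2 and Syt1 after Chd8 shRNA, and in no other knockdown.

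The synapsins parted from each other under Chd8 shRNA. Syn2 stood at 219, 242 and 262 CPM in nontargeting males and at 102, 93.4 and 145 CPM with Chd8 shRNA. In females the values were 304, 209 and 245 CPM against 148, 90.9 and 98.5 CPM. No Chd8 library reached the lowest nontargeting library in either sex. Syn2 was 2.13-fold lower in males (−1.09, SE 0.247, edgeR adjusted p = 0.0018) and 2.25-fold lower in females (−1.17, SE 0.247, adjusted p = 0.00082), and both calls held without any single library. Syn1, by contrast, was at 372, 381 and 405 CPM in nontargeting males and 389, 369.6 and 425 CPM with Chd8 shRNA, and its log2 fold change was 0.03 (SE 0.285) in males. In females it was 0.11 (SE 0.285).

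After Med13l shRNA neither synapsin passed. Syn2 was at 197, 182 and 260.2 CPM in males and at 208, 172 and 216 CPM in females, which overlapped the nontargeting libraries (−0.18, edgeR adjusted p = 0.733, and −0.35, adjusted p = 0.404). The blocked fit called the female value (−0.33, SE 0.124, adjusted p = 0.0415). Syn1 was at 308, 299.7 and 327 CPM in males, all below the nontargeting males, and at 160.3, 407 and 288 CPM in females, where the nontargeting libraries held 254, 469 and 307 CPM. Its log2 fold changes were −0.31 (SE 0.286, edgeR adjusted p = 0.582) and −0.27 (SE 0.285, adjusted p = 0.624).

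The active zone genes Unc13a and Rims1 were lower on average after Chd8 shRNA and passed with the block but not in the main test. Rims1 stood at 262, 213 and 297 CPM in nontargeting males and 168, 147 and 108 CPM with Chd8 shRNA, without overlap. In females it stood at 137, 367 and 174 CPM against 56.7, 266 and 127 CPM, and every Chd8 library was below the nontargeting library of its number although the groups overlapped. The log2 fold changes were −0.87 (SE 0.44, edgeR adjusted p = 0.243) and −0.59 (SE 0.439, adjusted p = 0.505). With the block they were −0.86 (SE 0.182, adjusted p = 0.00035) and −0.68 (SE 0.182, adjusted p = 0.00429), against 22.1% and 21.1% of all genes called by that fit.

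Unc13a moved less. Its nontargeting libraries held 485, 476 and 549.8 CPM in males and 330.3, 533 and 429.8 CPM in females, and its Chd8 libraries 377, 343 and 352 CPM and 234, 403 and 345 CPM. Males did not overlap and females did. The log2 fold changes were −0.49 (SE 0.23, edgeR adjusted p = 0.191) and −0.40 (SE 0.23, adjusted p = 0.34), and with the block −0.49 (SE 0.119, adjusted p = 0.00143) and −0.41 (SE 0.119, adjusted p = 0.00942). After Med13l shRNA Unc13a was at 487, 464 and 474 CPM in males and 263, 479 and 420.2 CPM in females, which overlapped the nontargeting libraries (−0.08 and −0.15). Rims1 after Med13l shRNA was at 161, 160.3 and 151 CPM and 86.3, 290.1 and 131 CPM (−0.71, edgeR adjusted p = 0.372, and −0.42, adjusted p = 0.616), and the blocked fit called it in females (−0.46, SE 0.181, adjusted p = 0.0492).

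Compared directly, without the nontargeting libraries, Med13l and Chd8 libraries differed in 3 of 8 members in each sex, Syt1, Stx1a and Syn2. Over all genes, 19.4% were called between these groups in males and 21.9% in females. Syt1 was lower with Med13l than with Chd8 shRNA by a log2 difference of −1.59 in males (SE 0.275, edgeR adjusted p = 1.9e-05). In females the difference was −1.25 (SE 0.272, adjusted p = 0.00047), and it was −0.88 without Med13l replicate 1 and −2.25 without Med13l replicate 2. The female groups overlapped, since 1 Med13l library held 494 CPM and 1 Chd8 library 484 CPM. Stx1a was lower with Med13l shRNA by −0.92 (SE 0.156, edgeR adjusted p = 1.3e-05) and −0.87 (SE 0.156, adjusted p = 3e-05), with no overlap. Syn2 ran the other way and was higher with Med13l than with Chd8 shRNA by 0.91 (SE 0.246, edgeR adjusted p = 0.00531) and 0.82 (SE 0.246, adjusted p = 0.0114), with no overlap. The Syn2 difference lost its call without Med13l male replicate 3 (adjusted p = 0.0532) and, in females, without Chd8 replicate 2 (0.0745) or replicate 3 (0.0597). With the block, Syn1 was also lower with Med13l shRNA in both sexes (−0.34, SE 0.12, adjusted p = 0.0231, and −0.43, SE 0.12, adjusted p = 0.00359) and Unc13a higher in males (0.41, SE 0.119, adjusted p = 0.00507), while 34.5% and 38.6% of all genes were called.

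The sums of neuron markers overlapped between Med13l and nontargeting libraries, and those of inhibitory neuron markers were lower in most. The neuron sum ran from 11891 to 13388 CPM in Med13l males and from 11140.1 to 12581 CPM in Med13l females, against 12035 to 12599 and 12245 to 13189.6 CPM with the nontargeting shRNA. With Chd8 shRNA it ran from 11795 to 12914 CPM in males and from 11763 to 12247 CPM in females. The 12 inhibitory neuron markers summed to between 1280.2 and 1766 CPM in Med13l males and 1147 and 1987 CPM in Med13l females, against 2109 to 2315 and 1853 to 2172 CPM. With Chd8 shRNA the inhibitory sum was between 1349 and 1899 CPM in males and 1419 and 1851 CPM in females. Knockdowns without a called member also had inhibitory sums wholly below the nontargeting libraries. These were Dnmt3a (1780 to 2004 CPM), Mbd5 (1721 to 1946) and Tbr1 (1772 to 2042) in males. In females they were Dnmt3a (1475 to 1787 CPM) and Kdm6b (1614 to 1747). Apart from Ash1l, given below, the remaining inhibitory sums overlapped the nontargeting range. Astrocyte markers summed to between 307 and 355 CPM in Chd8 females, below the 404 to 566 CPM of nontargeting females. The astrocyte sums of Tbr1 females (321 to 375 CPM) and Kmt2c females (345 to 376 CPM) lay below that range too. In males the astrocyte sums overlapped, at 299 to 464 CPM with Chd8 shRNA against 382 to 489 CPM. Oligodendrocyte lineage markers summed to between 49.3 and 53.7 CPM in Chd8 females against 62.0 to 69.9 CPM. Their male sums overlapped, at 44.6 to 59.7 CPM with Chd8 shRNA against 59.0 to 63.6 CPM. Fibroblast and vascular markers were at 13.4 to 16.6 CPM in Chd8 males against 21.5 to 40.4 CPM, and at 11.5 to 19.8 CPM in Chd8 females against 22.5 to 53.1 CPM. The called markers were Mapt, Elavl3 and Gad2, lower in both sexes after Chd8 shRNA, with Elavl4 higher and Camk2a and Cnp lower in females. After Med13l shRNA they were Slc32a1, lower in both sexes, Nefh, Gad1 and Top2a, lower in males, and Bcl11b, lower in females. No marker was at 0 in every library, and 8 of 9 microglia markers were at 0 in some. The part of these markers in the changes of Syt1, Stx1a and Syn2 was not tested.

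In the other 7 knockdowns no member passed in either sex. Of these 112 tests, edgeR called 0 and DESeq2 called 0, and 4 had an unadjusted p under 0.05 in edgeR: Syn2 after Ash1l shRNA in both sexes, Vamp2 after Setd5 shRNA in females and Snap25 after Tbr1 shRNA in males. Over all genes edgeR called 1.98% in males and 1.1% in females after Ash1l shRNA, 0.0557% and 3.12% after Setd5, 0.217% and 0.0619% after Tbr1, 0.111% and 0.118% after Dnmt3a, 0.0867% and 0.0% after Kdm6b, 0.0867% and 0.0991% after Kmt2c, and 0.0619% and 0.0557% after Mbd5.

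Syn2 after Ash1l shRNA came nearest. Ash1l encodes a histone H3 lysine methyltransferase. Syn2 stood at 116, 119 and 203 CPM in males and at 138, 133 and 162 CPM in females, below every nontargeting library of its sex. The mean was 1.65-fold lower in males (−0.72, SE 0.245, edgeR adjusted p = 0.138) and 1.75-fold lower in females (−0.81, SE 0.246, adjusted p = 0.109). In females, where the numbers paired the libraries, the blocked fit called it (−0.78, SE 0.125, adjusted p = 1.9e-05), and that fit called 4.43% of all genes.

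Vamp2 after Setd5 shRNA was at 574, 995 and 636 CPM in females, below the nontargeting females (−0.69, SE 0.257, edgeR adjusted p = 0.136, and with the block −0.72, SE 0.175, adjusted p = 0.00403, where 13.0% of all genes were called). Without Setd5 female replicate 1 the Vamp2 value was −0.55 (SE 0.291, adjusted p = 0.616), and without replicate 2 it was −0.98 and called (adjusted p = 0.0254). The male libraries labelled Setd5 held 1291, 592 and 826 CPM of Vamp2, and the first of these is the library whose Setd5 mRNA was not lowered. The male log2 fold change of Vamp2 was −0.40 (SE 0.256, adjusted p = 1) with it and −0.74 (SE 0.265, adjusted p = 0.235) without the 2 male libraries that went against their labels. In Kdm6b males the Vamp2 value was −0.13 with all libraries and 0.13 without those 2. Without them the other 7 members lay between −0.19 (Syn2) and 0.35 (Stx1a, adjusted p = 0.494) in Setd5 males and between −0.14 (Syn2) and 0.27 (Stx1a) in Kdm6b males, and no member was called in either.

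Snap25 after Tbr1 shRNA was at 521, 471 and 548 CPM in males, without overlap with the nontargeting males (−0.42, SE 0.169, edgeR adjusted p = 0.748). With the block it was called (−0.41, SE 0.0947, adjusted p = 0.00775), where 1.75% of all genes were called. Tbr1 females held 629, 732 and 438 CPM of Snap25 (−0.34, SE 0.168, edgeR adjusted p = 1). Tbr1 encodes a T-box factor of deep-layer cortical neurons. After Dnmt3a shRNA Syt1 was at 833, 1019.6 and 1085 CPM in males and 687, 1079.5 and 678 CPM in females, the lowest means of Syt1 outside Med13l and Chd8 (−0.38 and −0.44, not called). The male groups did not overlap and the female groups did. Over the 14 comparisons of these 7 targets, the remaining members ran from −0.40 to 0.19 (Syn1), −0.33 to 0.11 (Unc13a) and −0.46 to 0.14 (Rims1).

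**Figure D3:**
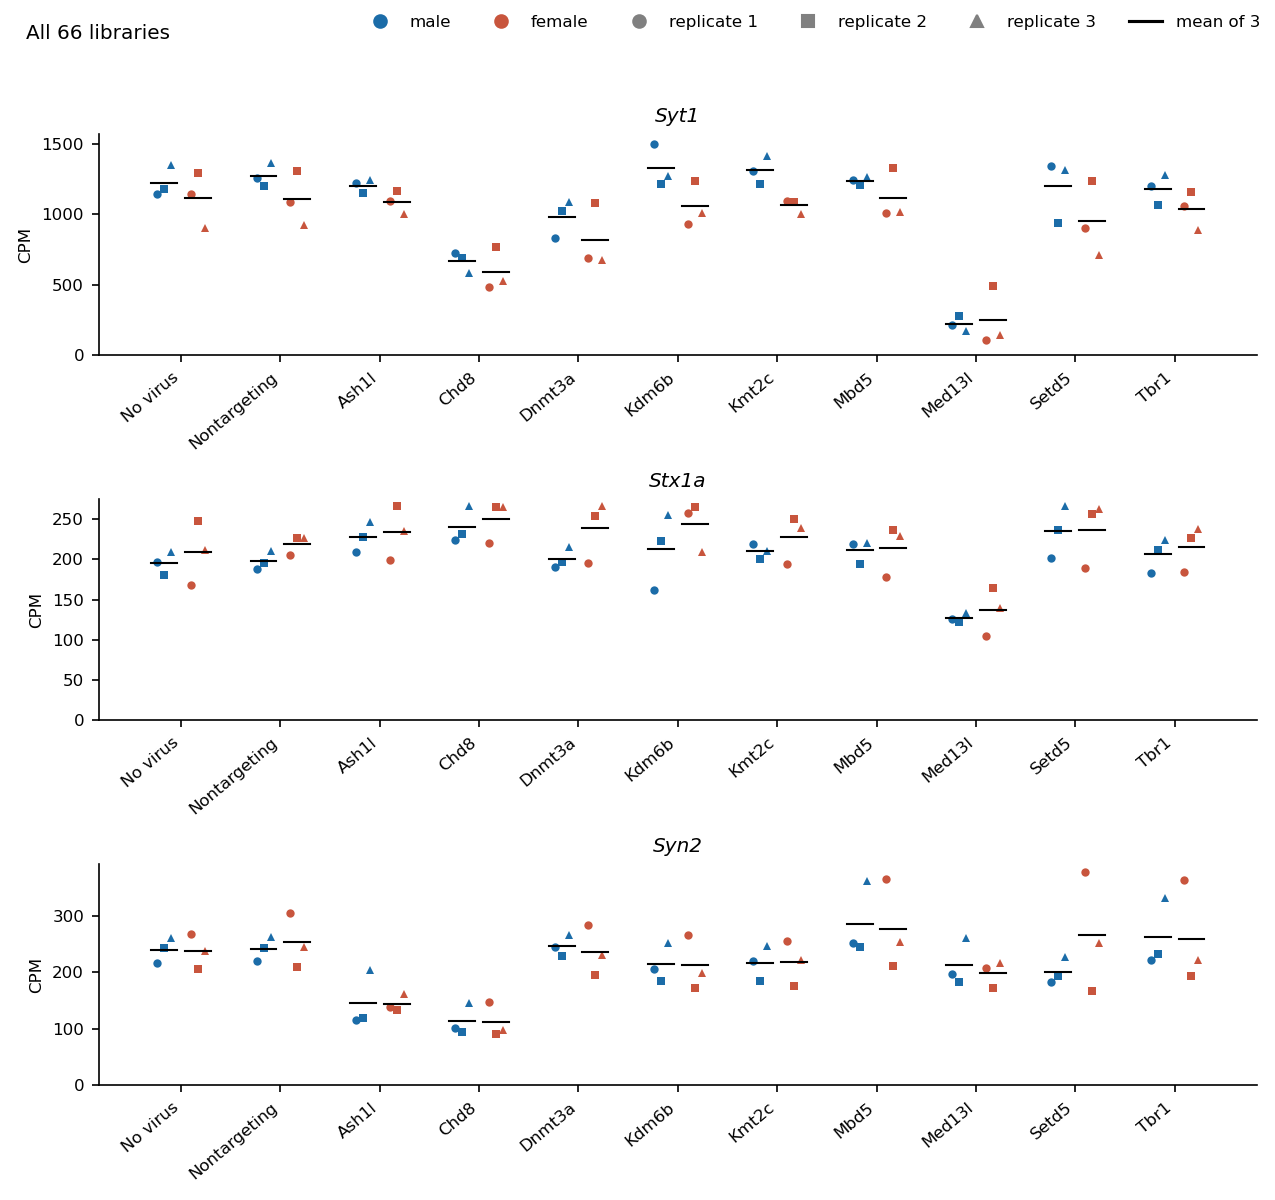
CPM (vertical axes, starting at 0) of Syt1, Stx1a and Syn2, the 3 members called in some knockdown, in all 66 libraries. Points are libraries, coloured by sex, and lines are group means (n = 3). Syt1 with Med13l shRNA reaches at most 494 CPM and Syn2 with Chd8 shRNA at most 148 CPM, and Ash1l shRNA gives the next lowest means of Syn2, at 146 and 144 CPM.

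The study keeps the sexes apart, and no member's response was called different between them. Of 72 tests of the male minus the female effect, edgeR called 0, DESeq2 called 0 and none had an unadjusted p under 0.05. Over all genes 0.0% were called in 8 of 9 targets and 0.0186% for Setd5. The widest gap after Med13l shRNA was that of Syt1, at −0.36 (SE 0.379, adjusted p = 1). With no knockdown, none of 16 tests of males against females passed by edgeR or by DESeq2, none had an unadjusted p under 0.05, and 0.0434% of all genes were called in the nontargeting libraries. A p that misses the threshold does not show that the sexes respond alike.

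Several members also moved with the replicate number, whatever the knockdown. Rims1, Syn1 and Vamp2 were highest in the library numbered 2 in 11 of 11 female groups, Syt1 in 10, Unc13a in 9 and Snap25 in 8. The median over the 11 female groups of Rims1 was 137, 316 and 176 CPM in libraries 1, 2 and 3, that of Syn1 243, 448 and 307 CPM, and that of Unc13a 305, 517 and 420.2 CPM. Syn2 went the other way: it was highest in number 1 in 9 of 11 female groups, with medians of 268, 175 and 221 CPM, and in number 3 in 11 of 11 male groups. Male groups varied less in Rims1, with a median fold of 1.4 between the highest and the lowest library against 2.68 in females.

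Markers moved with the numbers as well. The progenitor marker sum was highest in number 1 in 11 of 11 female groups (medians 70.9, 39.8 and 34.9 CPM), and the astrocyte marker sum in number 3 in 11 of 11 male groups (371, 362 and 489 CPM). Their part in the members' spread was not tested. Leaving out all female libraries numbered 2, an alternative chosen after the data were seen, kept every call of Syt1, Stx1a and Syn2. It added Vamp2 after Med13l shRNA (−0.70, adjusted p = 0.011, in males and −0.71, adjusted p = 0.0398, in females) and after Setd5 shRNA in females (−0.82, adjusted p = 0.0219), and Rims1 in males after Chd8 (−0.86, adjusted p = 0.0128) and Med13l shRNA (−0.70, adjusted p = 0.0486), all by edgeR.

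**Figure D4:**
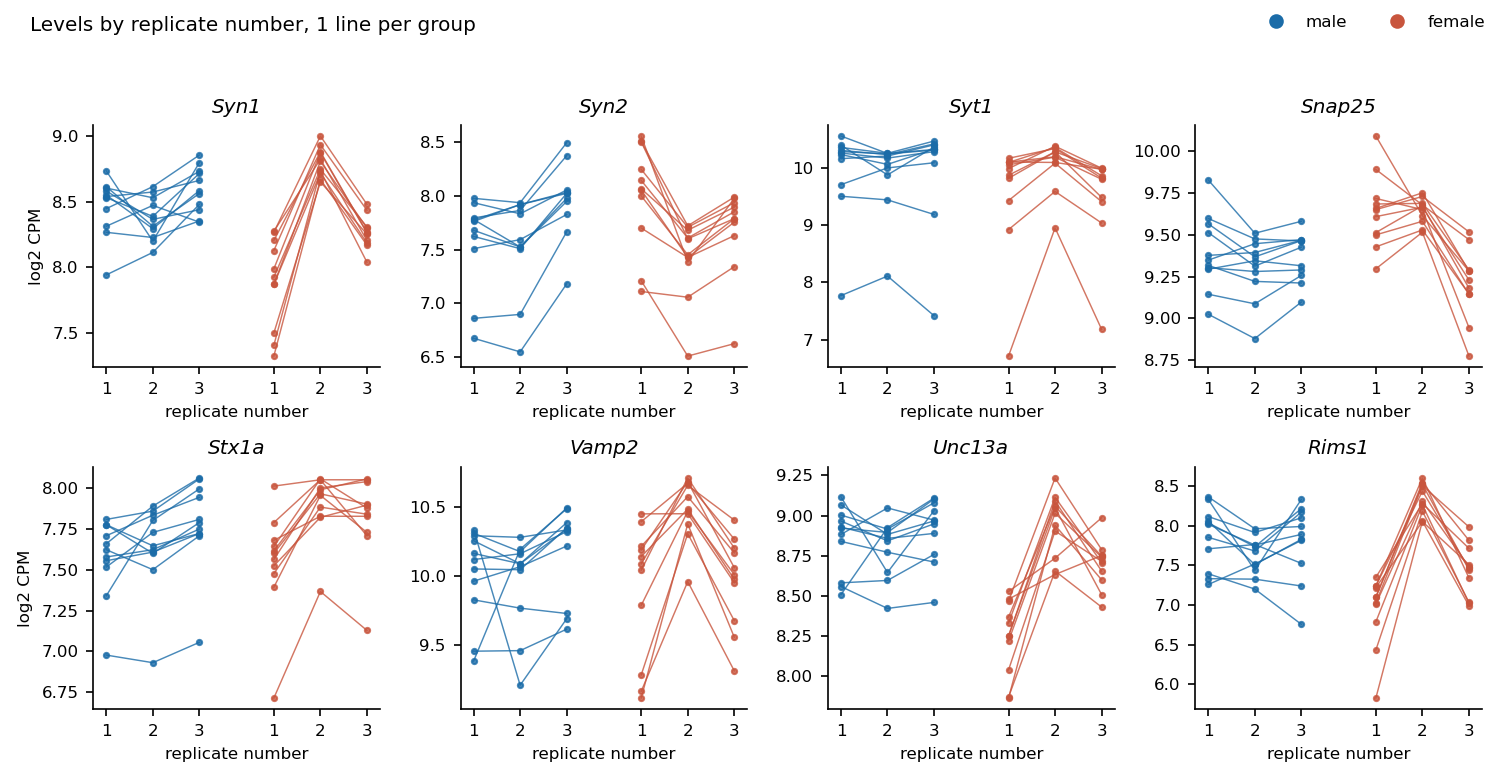
Log2 CPM (vertical axes) of the members by replicate number, with 1 line for each of the 11 groups of a sex. In females the lines of Rims1, Syn1 and Vamp2 peak at number 2 in 11 of 11 groups, while those of Syn2 peak at number 1 in 9 of 11.

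Beyond the 8 members, 109 other genes of the release machinery were listed by role, of which 108 were tested. After Chd8 shRNA 12 fell and 0 rose in males, and 13 fell and 0 rose in females, beside 9.82% and 9.33% of all genes called and 6.18% and 5.99% called lower. Their median log2 fold change was −0.13 and −0.15 against 0.0 over all genes, and that of the 8 members −0.47 and −0.40. After Med13l shRNA 17 fell and 3 rose in males, and 15 fell and 4 rose in females, beside 8.06% and 10.2% of all genes called and 4.92% and 5.49% called lower. The medians were −0.16 and −0.20 against −0.007 and 0.002. For the 8 members the medians were −0.47 and −0.38. In both sexes at once, 10 of 108 fell and 0 rose after Chd8 shRNA. Of all 16145 genes, 772 fell and 384 rose in both sexes (7.16% called in either direction). After Med13l shRNA 13 of 108 fell and 3 rose, where 589 of all genes fell and 394 rose (6.09%). With the replicate number as a block, 25 fell and 4 rose in both sexes after Chd8 shRNA, where 16.1% of all genes were called in both.

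By role, and beside the 6.18% and 5.99% of all genes called lower, Chd8 shRNA lowered 3 of 18 vesicle proteins in each sex: Syn3, the third synapsin (−1.07 and −1.19, males and females), Sv2a, a vesicle glycoprotein (−0.56 and −0.59), and Syp, synaptophysin (−0.34 and −0.34). Of 14 other synaptotagmin and Doc2 genes, Syt9 fell in both sexes (−1.28 and −1.01). Among 25 tested SNAREs and regulators Cplx1, complexin-1, which clamps and assists the SNARE complex, fell in both (−1.27 and −1.07). The strongest call of the list was the scaffold gene Lin7c, at 57.4 ± 5.56 CPM in males against 262 ± 10.6 CPM and at 65.4 ± 18.0 CPM in females against 291 ± 25.9 CPM (n = 3 each). That is 4.57-fold and 4.45-fold lower (edgeR adjusted p = 9.7e-13 and 1.6e-12). The active zone genes Ppfia4, a liprin-alpha (−0.83 and −0.95), and Cacna1b, the pore of N-type calcium channels (−0.75 and −0.72), fell too, as did the endocytosis genes Amph (−0.32 and −0.33) and Synj1 (−0.96 and −0.83).

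Syn3 was also called lower after Med13l shRNA in both sexes. Cplx1 fell after Med13l shRNA in males (−1.30, adjusted p = 0.00546) and was at −0.93 in females (edgeR adjusted p = 0.0504, and 7.6e-05 with the block), and its direct difference between the knockdowns was −0.03 and 0.15, not called in either sex. Cplx2, complexin-2, was at 157 ± 31.7 CPM in males against 449 ± 7.68 CPM and at 156 ± 16.3 CPM in females against 492 ± 97.2 CPM (n = 3 each), 2.87-fold and 3.15-fold lower (edgeR adjusted p = 4.8e-06 and 8.9e-07). After Chd8 shRNA Cplx2 was at 0.63 and 0.53 (edgeR adjusted p = 0.0624 and 0.144, and 0.00018 and 0.00353 with the block), and the direct difference between the knockdowns was −2.15 and −2.18 (adjusted p = 5.5e-10 and 4.7e-10). Lin7c was not called after Med13l shRNA (−0.18 and −0.15), and the direct difference was 2.01 and 2.0. Also lower in both sexes were Pclo, the active zone scaffold piccolo (−1.53 and −1.61), Dnajc5, the vesicle chaperone CSP-alpha (−1.14 and −1.14), the synaptogyrins Syngr3 (−0.84 and −0.84) and Syngr1 (−0.51 and −0.48), Snap91, the endocytic adaptor AP180 (−1.07 and −0.95), Syt16 (−0.77 and −0.71), Syt17 (−0.93 and −0.83), Syn3 (−0.86 and −1.26) and the vesicular GABA transporter Slc32a1 (−0.89 and −0.89), which is itself one of the inhibitory markers.

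The 3 genes that rose in both sexes after Med13l shRNA were all SNAREs. Vamp3, a vesicle SNARE of broad expression, was at 32.3 ± 1.82 CPM in males against 13.1 ± 0.697 CPM and at 36.2 ± 1.77 CPM in females against 14.2 ± 0.405 CPM (n = 3 each). That is 2.46-fold and 2.54-fold higher (edgeR adjusted p = 9.9e-07 and 5.3e-07). Snap29 rose by 0.72 and 0.71 and Vamp1, a close paralog of Vamp2, by 0.61 (adjusted p = 0.0401) and 0.88 (adjusted p = 0.00178). After Chd8 shRNA Vamp1 was at −0.45 and −0.43 and not called (with the block, adjusted p = 0.0499 in males).

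Apart from Syn3 and Vamp1, the close paralogs of the members mostly did not pass. The calcium sensors Syt2, Syt5 and Syt7 were between −0.48 and 0.58 in both knockdowns, and the blocked fit called Syt7 in females after Med13l shRNA (−0.51, adjusted p = 0.00076) and Syt5 in females after Chd8 shRNA (−0.33, adjusted p = 0.0412). The mean of Syt2 was at most 6.19 CPM in these groups. Unc13b lay between −0.38 and 0.06 and Rims2 between −0.14 and 0.11. Snap23 fell after Chd8 shRNA in males (−0.79, edgeR adjusted p = 0.015) from 4.99 ± 0.452 to 2.88 ± 0.595 CPM (n = 3 each), and was not called in females (−0.25).

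**Figure D5:**
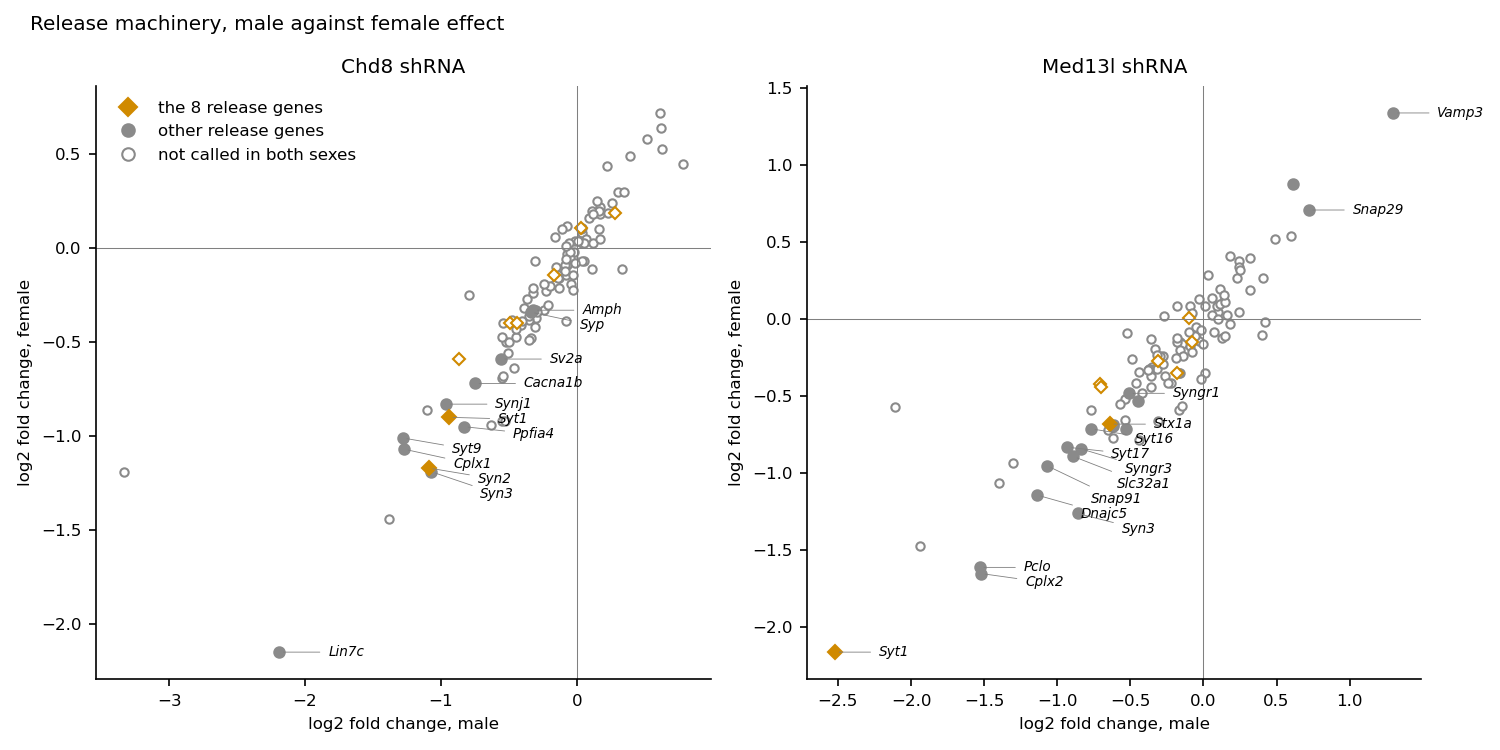
Male (horizontal axis) against female (vertical axis) log2 fold change of the 8 members (diamonds) and 108 other release genes (circles) after Chd8 and Med13l shRNA, with filled symbols for genes called in both sexes. Syt1 lies lowest among the members after Med13l shRNA (−2.52 and −2.16), and Lin7c lowest among the genes called in both sexes after Chd8 shRNA (−2.19 and −2.15). Each axis uses the nontargeting libraries of its own sex.

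In the other 7 knockdowns few of the 108 passed. After Ash1l shRNA 5 were called in each sex, and 4 in both: Slc17a6, the vesicular glutamate transporter VGLUT2, rose (0.97 and 0.94), as did Vamp3 (0.77 and 0.81), while Slc32a1 (−1.22 and −1.24) and Lin7a (−1.20 and −0.89) fell, where 0.991% of all genes were called in both sexes. With Ash1l shRNA the inhibitory marker sum was between 966 and 1437 CPM in males and 1020.3 and 1329 CPM in females, below all nontargeting libraries. The excitatory sum was between 1206 and 1409.9 CPM in males, above the 1007 to 1079 CPM of nontargeting males, and between 1173 and 1306 CPM in females against 1041 to 1177 CPM. Slc17a6 and Slc32a1 are themselves among those markers, and the part of the markers in these changes was not tested. Setd5 shRNA gave 10 calls in females, 9 of them lower, and 1 in males, where 3.12% and 0.0557% of all genes were called. The male group includes the library whose Setd5 mRNA was not lowered, so these counts are not read as a difference between the sexes. The endocytic dynamin Dnm3 fell in males (−0.94) and in females (−0.84), and was at −1.05 in males without the 2 libraries at odds with their labels. After Dnmt3a, Kmt2c and Mbd5 shRNA none of the 108 was called by the main edgeR fit or DESeq2 in either sex. Between 1 (Kmt2c, males) and 12 (Dnmt3a, females) had an unadjusted p under 0.05. By the blocked fit 4 of the 108 fell in both sexes after Dnmt3a shRNA, 1 after Kmt2c and 2 after Mbd5. That fit called 0.849%, 0.359% and 0.347% of all genes in both sexes. In single sexes Syt13 fell after Tbr1 shRNA (−0.87, males). Snap29 was called higher in Setd5 females (0.71, edgeR adjusted p = 0.00349) and in Ash1l females (0.56, edgeR adjusted p = 0.0445). It was also called higher in Kdm6b males (0.76, edgeR adjusted p = 0.024), but not without the 2 male libraries at odds with their labels (0.55, adjusted p = 0.151).

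As a description over 66 libraries, each member was set beside 9603 genes of at least 10 CPM by the correlation of log2 CPM after the mean of each sex was subtracted. The points share groups and replicate numbers, so the coefficients carry no p. Syt1 was closest to Pip5k1c (r = 0.943), Cap1 (0.933) and Ntrk2 (0.913), and Stx1a to Dmtn (0.934), Apba2 (0.904) and Rfng (0.892). Syn2 had the least close partners, Dzip1 (0.796), Lmo4 (0.772) and Ccnd1 (0.758). Rims1 was closest to Ppm1l (0.952), Herc3 (0.933) and Mia3 (0.929), Unc13a to Sec16a (0.927), Sez6l2 (0.913) and Ttbk1 (0.899), and Syn1 to R3hdm2 (0.932), Rusc1 (0.924) and Eif4g3 (0.923). Vamp2 was closest to Plppr5 (0.902), Gng4 (0.872) and Pigt (0.869), and Snap25 to Rab39b (0.869), Ccar1 (0.824) and Fam3c (0.787). Among the members themselves the closest pair was Unc13a and Rims1 (r = 0.816), followed by Syn1 and Rims1 (0.754). Within female groups Syn1 and Rims1 reached 0.925, while Syn2 and Rims1 ran in opposite directions (−0.823).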

How the data were processed

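RNA was measured by polyA-selected sequencing in 66 libraries (TruSeq Stranded mRNA, per the labels' protocols). The authors deposited 1 table of raw read counts per gene, not normalized, with 48716 rows. STAR, featureCounts and mm10 stand in the submitters' processing notes without versions or settings. Rows without a symbol (18483, holding 0.69% to 1.415% of counts) were left out, 149 repeated symbols were summed, and 6 columns of no sample were not used. The control columns are named Luc in the table and were matched to the group the labels call nontargeting. Low counts were mostly even (26.74% of values from 1 to 20 were odd, against 49.07% of values of at least 1000), so halved counts were tried too.

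Tests used edgeR 4.0.16 in R 4.3.3. After filterByExpr, 16145 genes remained, and TMM factors lay between 0.874 and 1.06. The robust quasi-likelihood F test was run with 1 mean per group in a single model of 66 libraries, and Benjamini-Hochberg adjustment covered all genes of a comparison (threshold 0.05). SE values were derived from the test statistic. Counts-per-million (CPM) use TMM-scaled totals, and log2 CPM had a prior count of 2. The procedure was tested on simulated counts in which 200 of 16145 genes were changed in Med13l males. It called 85.2% of the 4-fold and 51.1% of the 2-fold changes, and 7 unchanged genes. A gene that was not called may therefore still have changed. No 2 libraries of a group agreed within sampling noise (chi-square per gene of at least 7.92). Alternatives were DESeq2 1.42.0, other size factors, no filter, other control or sample sets, halved counts, a replicate block, each library left out in turn and, chosen after seeing the data, leaving out all female libraries numbered 2 or the 2 male libraries at odds with their labels.

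The replicate numbers come from the labels. They were taken to pair libraries where the deviations from the group mean, over genes, correlated above 0.1 in all 3 same-numbered pairs of a knockdown and its nontargeting control. This held in both sexes for Chd8, Dnmt3a, Kmt2c, Mbd5, Setd5 and Tbr1, and in females for Ash1l and Med13l, but not for Kdm6b (lowest r 0.0354 in males and 0.0362 in females) nor for male Ash1l (−0.1085) or Med13l (0.0190). Med13l and Chd8 libraries were paired with each other in both sexes (lowest r 0.1561 and 0.1946).

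The 8 members and the lists were chosen with earlier results of these data known. Named beyond the members were up to 12 other release genes per target for Chd8 and Med13l (3 for other targets) called alike in both sexes with the smallest larger adjusted p, close paralogs, and per member the 3 genes most alike over libraries among those of at least 10 CPM. Lin7a after Ash1l shRNA and genes called in 1 sex were named after their values were seen. The values of 1 listed gene are not reported here. Promoters are from RefSeq GRCm38.p6, where 6 of 8 members matched, and positions and exon lengths from GENCODE for GRCm38. Counts do not separate isoforms, and intervals for counting error were not used.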

Additional observations from a re-analysis of the deposited data

How the results depend on the processing

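Of the 8 member calls against the nontargeting libraries, none changed direction under any alternative run, and none was lost under DESeq2, other size factors, halved counts or the replicate block. The weakest was Syt1 after Chd8 shRNA in females, lost when only the libraries compared were fitted (adjusted p = 0.133) or each sex alone (0.155). The fit of only the libraries compared also ended the calls in females of Syt1 (0.232) and Stx1a (0.247) after Med13l shRNA and of Syn2 after Chd8 shRNA (0.0883), and of Syt1 (0.243), Stx1a (0.0816) and Syn2 (0.106) between the 2 knockdowns. That fit held fewer libraries in both sexes, and in males it ended no member call. The cause of the losses was not tested.

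Among member tests of a group against another that were not called in the main fit, fitting only the libraries compared added 10 calls. Fitting each sex separately added 7. Counts below are over both sexes. Members called after Ash1l shRNA were 0, with 2 under the replicate block and 1 with each sex fitted separately, and 0 to 1 with a library left out (1 without Ash1l male replicate 3). After Chd8 shRNA 4 became 9 under the block, and 3 to 4 with a library left out. After Med13l shRNA 4 became 9 under the block and 7 without the female libraries numbered 2, and 3 to 5 with a library left out. After Setd5 shRNA 0 became 1 under the block and 1 without the female libraries numbered 2, and 0 to 1 with a library left out (1 without Setd5 female replicate 2). After Tbr1 shRNA 0 became 1 under the block and 1 with each sex fitted separately. Other release genes called after Chd8 shRNA were 25, and 74 under the block, 40 with only the libraries compared, 39 with each sex separately, 43 without the female libraries numbered 2 and 16 to 34 with a library left out (16 without Chd8 female replicate 1). After Med13l shRNA they were 39, with 92 under the block and 29 to 56 with a library left out. Where the numbers did not pair the libraries, the block called Rims1 (−0.70) and Vamp2 (−0.70) after Med13l shRNA and Syn2 (−0.76) after Ash1l shRNA in males. The blocked fit of the male minus the female effect called 0 of 72 member tests. No paired analysis was possible for males against females in the control libraries, because the numbers were blocked within each sex. The cause of these moves was not tested.

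Of the named release genes, calls of Amph, Cacna1b, Cplx1, Pclo, Slc32a1, Snap91, Sv2a, Syn3, Syngr1, Synj1, Syp, Slc17a6, Vamp3 (after Ash1l) and Dnm3 were lost when some single library was left out, most often those of Syp after Chd8 shRNA (6 of 6 in males and 5 of 6 in females). Of 66 calls of members and named release genes, fitting only the libraries compared ended 33, among them Cplx2, Dnajc5, Vamp3, Syngr3, Ppfia4 and Syt9 in females. Among these calls, only Lin7c after Chd8 shRNA was kept in females, and only Dnm3 after Setd5 shRNA was lost in males. Fitting each sex separately ended 11, all in females. No virus as control ended 7 (of 60, Snap29 after Med13l shRNA in females among them). Library totals alone ended 5 and no filter on low counts 5 (Amph and Syp in both sexes and Synj1 in females under each of these). Other size factors ended 2 (Synj1 in females and Syp in males). Without the 2 male libraries at odds with their labels, Synj1 after Chd8 shRNA in females also missed the threshold (adjusted p = 0.0545). DESeq2, halved counts and the block ended none.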
